A study of Homo sapiens with 6 samples.

Results

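The splicing regulators described here are 58 genes for hnRNP proteins, SR proteins and other RNA-binding proteins that steer splice site choice, taken from a fixed list of symbols and found by their Ensembl identifiers among the 60675 genes of the count tables. Every one of the 58 symbols had an identifier, and 57 passed the filter on low counts. The data are RNA-seq counts per gene from PLC/PRF/5, a human hepatocellular carcinoma (HCC) line, in 3 control libraries and 3 libraries after knockdown of MTR4 (MTR4 KD). MTR4 is the RNA helicase that hands nuclear RNA to the exosome. The sample labels name only control and MTR4 KD, while the study describes RNA-seq in cells with a doxycycline-inducible shRNA before and after Doxy. The labels do not say whether control means the same cells without Doxy. If so, an effect of Doxy cannot be told apart from that of the knockdown, since a library of Doxy-treated scramble cells was not analysed here. The study ties MTR4 to the splicing of glycolytic transcripts, and the comparison asks whether the genes of the splicing regulators themselves differed in level.

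Splicing regulators bind short motifs in pre-mRNA and raise or lower the use of nearby splice sites. SR proteins carry an RNA recognition domain and a tail rich in arginine and serine, and they mostly promote exon inclusion from exonic enhancers. hnRNP proteins coat nascent RNA and often repress exons, and PTB proteins do so from pyrimidine-rich tracts. The epithelial regulators ESRP1 and ESRP2 and the RBFOX, MBNL, CELF and QKI proteins set tissue programs, while U2AF, SF1 and SF3B1 recognize the 3' end of every intron of the major class.

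Many of these genes control their own output by including a poison exon, a cassette exon with a stop codon that sends the transcript to nonsense-mediated decay (NMD). A count per gene adds the productive and the poison transcripts together, which is why 4 of these exons are shown. In the GENCODE v44lift37 annotation, 44 of the 58 genes had an NMD transcript, among them each of the 14 SR and TRA2 genes and 14 of the 20 hnRNP genes. A cassette exon that carried the annotated stop codon and was absent from the canonical transcript was found in 22 genes, 7 of them SR or TRA2 genes and 3 of them hnRNP genes. The lines below give the exon of SRSF3, SRSF6, TRA2A and TRA2B from its first base to its stop codon, which is in capitals, 5′ to 3′ as transcribed, from the GENCODE transcript sequences of GRCh37.
TRA2A: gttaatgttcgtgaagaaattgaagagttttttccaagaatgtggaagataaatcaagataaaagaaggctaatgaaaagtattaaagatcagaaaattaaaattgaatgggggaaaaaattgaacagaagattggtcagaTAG
TRA2B: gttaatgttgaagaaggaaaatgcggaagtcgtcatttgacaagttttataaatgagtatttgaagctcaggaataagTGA
SRSF6: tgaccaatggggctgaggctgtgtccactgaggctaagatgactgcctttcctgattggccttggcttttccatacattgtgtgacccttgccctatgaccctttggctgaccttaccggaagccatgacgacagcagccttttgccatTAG
SRSF3: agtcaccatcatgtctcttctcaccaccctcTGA
The TRA2A exon is exon 2 of the 9 exons of ENST00000538367.6 and is 301 bases long, with 144 bases up to and including the stop. In TRA2B it is exon 2 of 10 in ENST00000456380.5, with 276 bases and the stop within the first 81. In SRSF6 it is exon 3 of 7 in ENST00000483871.6, with 268 bases and the stop within the first 152. The SRSF3 exon, number 4 of 7 in ENST00000477442.6, is 456 bases long and reaches its stop after 34 bases. How often each exon was included was not measured, since the tables hold no reads per exon.

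The libraries held 60686786 to 72708682 reads on genes. MTREX, the gene of MTR4 (ENSG00000039123; GRCh38 chromosome 5, 55307989 to 55425579), had 72.2, 87.4 and 74.4 CPM in the control libraries and 44.6, 48.8 and 44.1 CPM in the MTR4 KD libraries. CPM here is a gene's count scaled to a common library size with edgeR's TMM factors. Every MTR4 KD library was below every control library, and the log2 fold change was −0.77 (SE 0.0897, n = 3 per group, adjusted p = 0.00641 in edgeR's quasi-likelihood test). The 13 hepatocyte and hepatoma markers summed to 29943 to 31129 CPM in the control libraries and 30182 to 31996 CPM in the MTR4 KD libraries, and 4 of them passed an adjusted p under 0.05 as higher in MTR4 KD and 0 as lower, against 1.48% and 2.12% of the genes tested. Their part in the results was not tested. Of 10 immune, endothelial and stromal markers, 9 had an identifier and 4 passed the filter. The 9 with an identifier summed to 8.64 to 13.5 CPM in any library. Control 1, control 3 and MTR4 KD 3 had 34.7% to 37.5% of their reads in the class of non-unique alignments, against 14.8% to 18.2% in control 2, MTR4 KD 1 and MTR4 KD 2. This alignment class holds libraries of both groups on each side, so its values are given beside the results. In these bulk libraries a change in the share of cells that express a gene and a change in RNA per cell cannot be told apart.

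Gene levels of the splicing regulators differed little between MTR4 KD and control. In the fit on condition alone, a single member, ESRP2, passed an adjusted p under 0.05 (1 of 57, 1.75%), against 3.6% of the 18075 genes tested. It was higher in MTR4 KD, where 1.48% of the tested genes passed as higher and 2.12% as lower. The share depends on the fit: with the alignment class as a term, 15 members passed (26.3%), against 20.2% of the tested genes, as given below. The mean was higher in MTR4 KD for 31 members and lower for 26, and the median log2 fold change was 0.03, against 0.01 over the tested genes. The members' log2 fold changes ran from −0.31 to 0.52, and 45 of the 57 were within 0.15 of 0. The fitted change was over 2-fold for 0 members and for 641 of the tested genes. DESeq2's Wald test, run on 58 members, called 5 of them. This was a larger share than the 6.26% called of the 18154 genes to which it gave an adjusted p. ESRP2, SRSF6, RBM39 and TRA2A were higher (2.58% of those genes) and RBFOX2 was lower (3.67%).

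The intervals show how large a difference these libraries allow. For 50 of the 57 members (87.7%) the 95% confidence interval of the log2 fold change stayed within 0.5 of 0, as it did for 48.7% of the tested genes. For 23 members it stayed within 0.25, as it did for 14.1% of the tested genes. The tested genes were not matched to the members for depth, here or in the 2-fold count. Apart from MBNL3 and U2AF1, each tested member had at least 1215 reads in every library, while the filter's minimum count was 10. Standard errors ran from 0.0510 for HNRNPR to 0.304 for U2AF1. Every MTR4 KD library was above every control library for 8 members (14.0%), against 12.1% of the tested genes, and every MTR4 KD library was below every control library for 6 members (10.5%), against 12.6%. Both shares were near those of all genes. At an unadjusted p under 0.05 there were 9 members (15.8%), 7 of them higher in MTR4 KD, against 18.8% of the tested genes, 8.93% being higher.

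**Figure D1:**
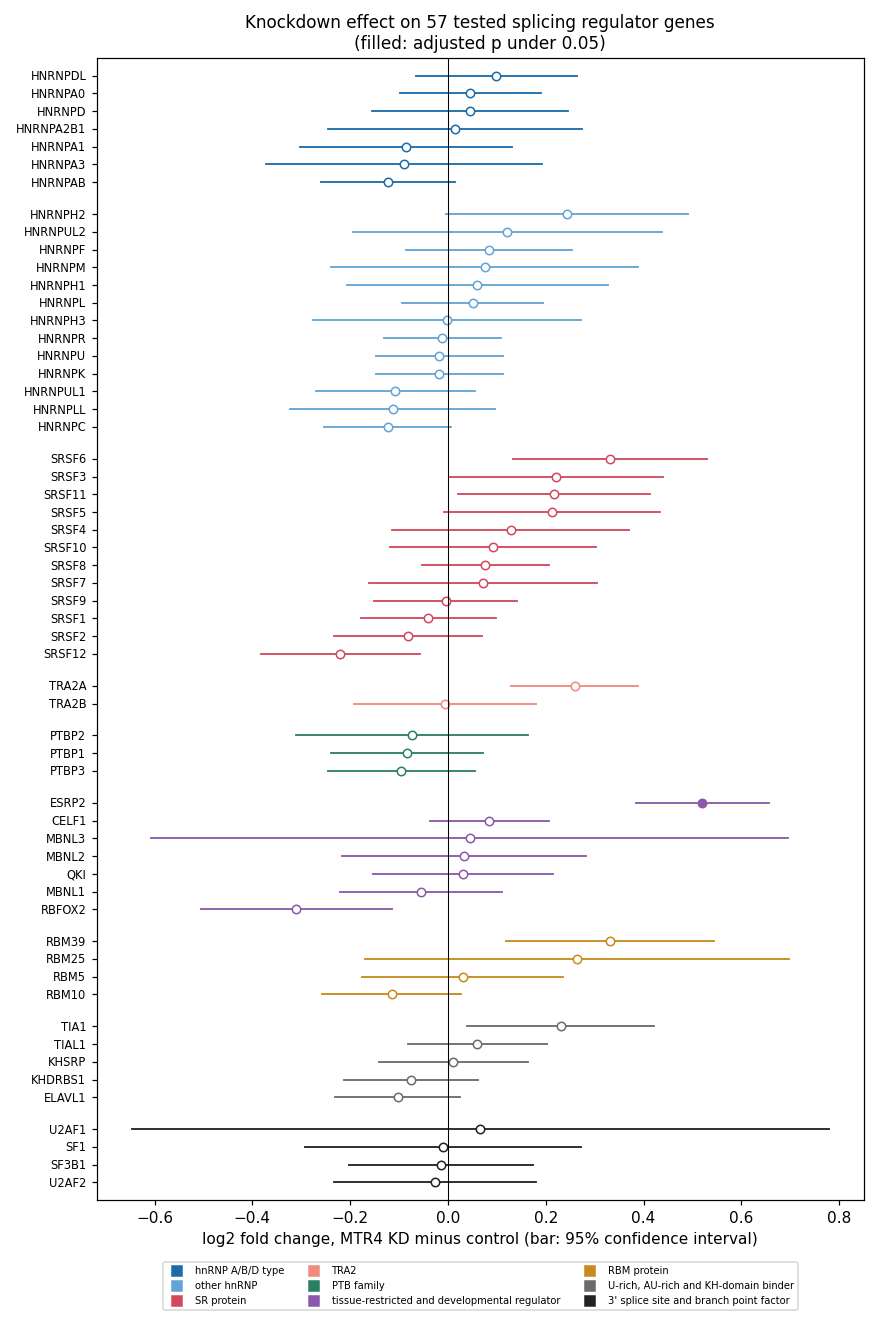
Log2 fold change of MTR4 KD minus control for the 57 tested members on the horizontal axis, one row per gene, with bars for the 95% confidence interval from edgeR and colors for the 9 role groups. The filled point at 0.52 is ESRP2, and the open points, which did not pass, lie between −0.31 and 0.33.

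ESRP2 encodes an epithelial splicing regulator that binds GU-rich motifs and keeps epithelial exon choices in many transcripts (ENSG00000103067; chromosome 16, 68229033 to 68236127). Its level was 77.5, 72.9 and 77.4 CPM in the control libraries and 108, 112 and 107 CPM in the MTR4 KD libraries. The lowest MTR4 KD library stood well above the highest control library, and the spread inside each group was small (76.0 ± 2.64 against 109 ± 2.45 CPM, mean ± SD, n = 3). ESRP2 rose 1.43-fold, a log2 fold change of 0.52 (SE 0.0580, 95% confidence interval 0.38 to 0.66, adjusted p = 0.00509). The rise was 0.47 among the libraries with more non-unique reads, with MTR4 KD 3 alone on the knockdown side. It was 0.59 among those with fewer, with control 2 alone on the control side. Left out in turn, the libraries gave 0.49 to 0.53, and the call held in 5 of the 6 fits. Without MTR4 KD replicate 2 the adjusted p was 0.0530.

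ESRP1, the paralog of ESRP2 and the other epithelial regulator of the family, was the 1 member that was not tested. It had 2 to 17 reads per library, or 0.0299 to 0.276 CPM, with control and MTR4 KD libraries overlapping, and a difference was not detectable at this depth. MBNL3, a muscleblind protein, had 47 to 85 reads, and its interval of −0.61 to 0.70 allows changes of either sign.

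RBFOX2, which binds UGCAUG and promotes or represses exons by position, had the most negative log2 fold change among the members (ENSG00000100320). The control libraries had 80.7, 90.2 and 78.8 CPM and the MTR4 KD libraries had 67.6, 72.0 and 61.8 CPM. The groups did not overlap, with means of 83.2 ± 6.14 and 67.1 ± 5.14 CPM. The log2 fold change of −0.31 (SE 0.0833, 95% confidence interval −0.51 to −0.11) did not pass, with an adjusted p of 0.105. It passed with the alignment class as a term (−0.37, adjusted p = 7.12e-05) and in DESeq2's Wald test (adjusted p = 0.0437). The log2 fold change of RBFOX2 was −0.37 within the libraries with more non-unique reads and −0.37 within those with fewer. Each of these 2 values rests on a single library in 1 of the groups, MTR4 KD 3 or control 2. Over the alternatives its adjusted p ran from 7.12e-05 to 0.314.

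Of the other tissue-restricted and developmental regulators, CELF1 (0.08), MBNL2 (0.03), QKI (0.03) and MBNL1 (−0.06) had log2 fold changes near 0. CELF1, a binder of GU-rich RNA, differed by a small and even amount. It had 155 ± 1.41 CPM in control and 165 ± 0.538 CPM in MTR4 KD, its groups did not overlap, and its adjusted p was 0.436. Among the 7 tested members of the group, 1 (ESRP2) passed as higher and 0 as lower, against 1.48% and 2.12% of the tested genes. The group's median log2 fold change was 0.03.

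**Figure D2:**
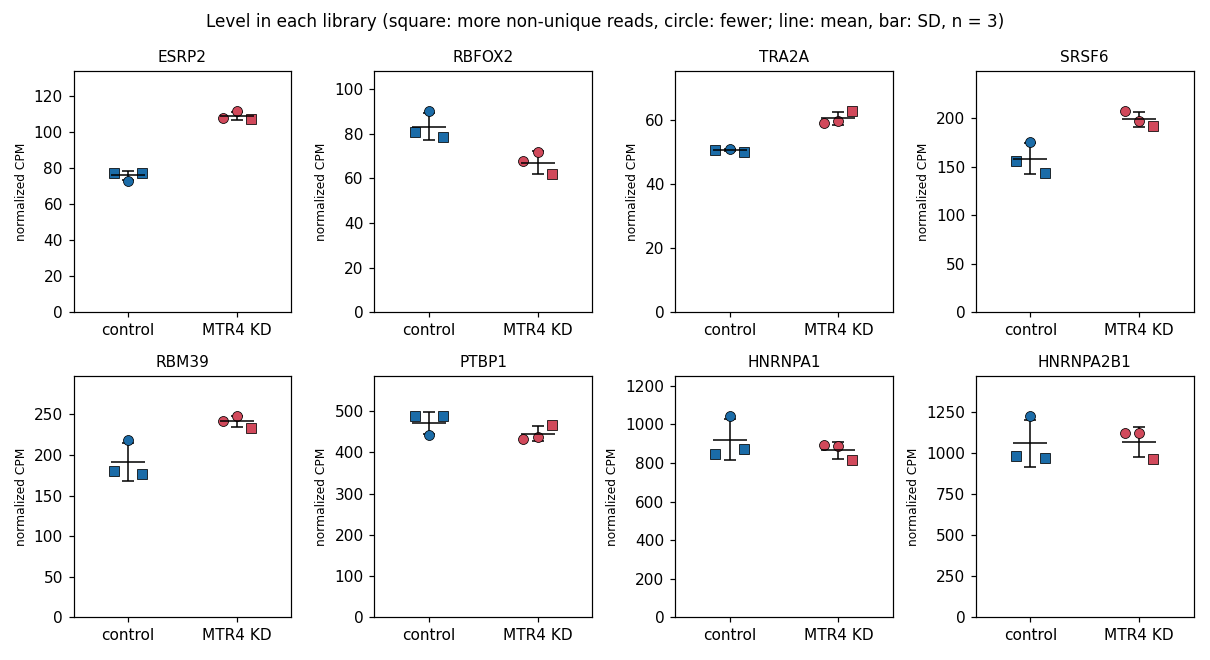
Normalized CPM of 8 members in each library, control in blue and MTR4 KD in red, with squares for libraries with more non-unique reads and circles for those with fewer, and a line and bar for the mean and SD of 3 libraries. The groups are apart for ESRP2, RBFOX2, TRA2A, SRSF6 and RBM39 and overlap for PTBP1, HNRNPA1 and HNRNPA2B1. Squares and circles separate inside a group for genes of both kinds, among them PTBP1, HNRNPA1, HNRNPA2B1, RBFOX2, SRSF6 and RBM39.

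Of the 12 SR genes, 8 had a higher mean in MTR4 KD and 4 a lower one, 0 passed the test, and the median log2 fold change was 0.08 (all members 0.03). At an unadjusted p under 0.05 there were 4 SR genes, 3 of them higher, against 18.8% of the tested genes and 8.93% as higher. SRSF6, an activator of many cassette exons, had the highest log2 fold change of the group (ENSG00000124193; chromosome 20, 43457896 to 43464243). It had 156, 175 and 144 CPM in the control libraries and 208, 198 and 192 CPM in the MTR4 KD libraries. The groups did not overlap, and the means were 158 ± 16.0 and 199 ± 7.97 CPM. Its log2 fold change of 0.33 (SE 0.0843, 95% confidence interval 0.13 to 0.53) had an adjusted p of 0.0907, and over the alternatives the adjusted p ran from 0.00134 with the alignment class as a term to 0.311. Without control replicate 2 it was 0.0271. Of the 50-base windows of its canonical transcript, 16.7% also occur, on either strand, in transcripts annotated to other genes.

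SRSF3, the smallest SR protein and a regulator of exon choice and mRNA export, had 279, 326 and 276 CPM in control and 363, 354 and 310 CPM in MTR4 KD (ENSG00000112081; chromosome 6, 36594362 to 36605600). MTR4 KD 3 was below control 2, so the groups overlapped, and both libraries with the lowest control values are of the class with more non-unique reads. The log2 fold change was 0.22 (adjusted p = 0.260). SRSF11 (0.22, adjusted p = 0.225) and SRSF5 (0.21, adjusted p = 0.282) were of the same size. SRSF12, known to oppose other SR proteins, had the lowest log2 fold change of the group, with 23.8, 22.7 and 24.1 CPM against 19.8, 19.8 and 21.0 CPM. Its groups did not overlap, and its log2 fold change of −0.22 (95% confidence interval −0.38 to −0.06) had an adjusted p of 0.149. SRSF1, the founding SR protein, had 189 ± 6.95 CPM in control and 184 ± 5.47 CPM in MTR4 KD, and its interval of −0.18 to 0.10 is narrow.

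The TRA2 genes encode SR-like proteins that bind GAA-rich enhancers, and the 2 paralogs had different values. TRA2A had 50.5, 50.8 and 50.05 CPM in the control libraries and 58.9, 59.6 and 62.7 CPM in the MTR4 KD libraries (ENSG00000164548; chromosome 7, 23504780 to 23531981). The control libraries were almost level, and each MTR4 KD library was above them. Its log2 fold change was 0.26 (SE 0.0551, 95% confidence interval 0.13 to 0.39), and the adjusted p of 0.0529 was just over the threshold. It passed with total counts in place of TMM (adjusted p = 0.0482), with the filter of at least 1 CPM (0.0422), in DESeq2's Wald test (0.0332) and with the alignment class as a term (0.00120), and did not with any library left out, where the adjusted p reached 0.215. TRA2B had 147, 170 and 145 CPM against 156, 157 and 146 CPM (ENSG00000136527; chromosome 3, 185914558 to 185938014). Its groups overlapped, and the log2 fold change was −0.01 (95% confidence interval −0.19 to 0.18, adjusted p = 0.975). The difference between the paralogs was not tested. Neither gene's count separates transcripts with the poison exon printed above from those without it.

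The mean was lower in MTR4 KD for each of the 3 PTB genes, and 0 passed. PTBP1, the polypyrimidine tract-binding repressor that the study links to MTR4, had 487, 441 and 487 CPM in the control libraries and 432, 437 and 466 CPM in the MTR4 KD libraries (ENSG00000011304; chromosome 19, 797452 to 812312). Control 2 lay below MTR4 KD 3, so the groups overlapped. Its log2 fold change was −0.08 (SE 0.0663, 95% confidence interval −0.24 to 0.07, adjusted p = 0.553), and −0.04 with the alignment class as a term (adjusted p = 0.506). Leaving out each library gave −0.14 to −0.06, and the adjusted p was between 0.263 and 0.853 over the alternatives. The study reports that the MTR4 and PTBP1 proteins interact and that MTR4 recruits PTBP1 to target pre-mRNAs. Gene counts do not measure this link. PTBP2, the neuronal paralog, had 45.0, 56.0 and 43.8 CPM against 47.0, 46.6 and 44.1 CPM, and without control replicate 2 the sign of its log2 fold change of −0.07 (95% confidence interval −0.31 to 0.16) turned. PTBP3 had 228 ± 11.5 and 214 ± 8.60 CPM, a log2 fold change of −0.10 (95% confidence interval −0.25 to 0.06).

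The hnRNP genes were evenly divided. Of 20 genes, 10 had a higher mean in MTR4 KD and 10 a lower one, 0 passed, and the median log2 fold change was 0.01. HNRNPA1, which represses exons and is known to compete with SR proteins, had 845, 1042 and 872 CPM in the control libraries and 895, 887 and 816 CPM in the MTR4 KD libraries. The high library was control 2, the others overlapped, and the log2 fold change was −0.09 (95% confidence interval −0.30 to 0.13, adjusted p = 0.671). Without control replicate 2 it was 0.01. HNRNPA1 shares 32.7% of its 50-base windows with transcripts of other genes, 56 in number, so its count is uncertain. HNRNPA2B1, its relative and the most abundant member per length, had 979, 1223 and 971 CPM against 1121, 1122 and 962 CPM. Control 2 was highest and the 3 libraries with more non-unique reads were lowest, so that the log2 fold change of 0.01 (95% confidence interval −0.25 to 0.27, adjusted p = 0.958) became −0.07 with the alignment class as a term.

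In the A/B/D type, HNRNPDL had the highest log2 fold change (0.10, adjusted p = 0.507) and HNRNPAB the lowest (−0.12, adjusted p = 0.313). HNRNPAB, a binder of nascent RNA, had 331, 354 and 343 CPM against 315, 325 and 304 CPM, and its groups did not overlap. Among the other hnRNP genes, HNRNPH2, which binds G-runs, had the highest log2 fold change, with 114 ± 14.1 CPM in control and 135 ± 11.2 CPM in MTR4 KD (0.24, adjusted p = 0.274), with overlapping groups. HNRNPC, which binds U-tracts and keeps cryptic exons out, had the lowest log2 fold change, with 462, 476 and 479 CPM against 434, 447 and 419 CPM (−0.12, adjusted p = 0.290), and its groups did not overlap. HNRNPR (234 ± 1.08 against 232 ± 2.80 CPM), HNRNPU (531 ± 13.4 against 525 ± 13.3 CPM) and HNRNPK (630 ± 16.6 against 623 ± 13.2 CPM) held the narrowest intervals of the family, each within 0.15 of 0.

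RBM39, a cofactor that works with the U2AF proteins in 3' splice site choice, had 180, 218 and 176 CPM in control and 242, 248 and 234 CPM in MTR4 KD (ENSG00000131051). The groups did not overlap, and the log2 fold change of 0.33 (SE 0.0909, 95% confidence interval 0.12 to 0.54) had an adjusted p of 0.110. Over the alternatives the adjusted p ran from 0.00170 to 0.329, and without control replicate 2 it was 0.0155. RBM25 had a similar mean shift with a far wider spread, at 76.6, 116 and 76.6 CPM against 118, 116 and 89.6 CPM. Its levels followed the alignment class, and its interval was −0.17 to 0.70 (adjusted p = 0.503). RBM10, in which loss of function is known in tumors, had the lowest log2 fold change of the 4 RBM genes (−0.12, adjusted p = 0.361), and RBM5 had 0.03.

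Among the 5 binders of U-rich, AU-rich and KH-type motifs, TIA1, which helps U1 snRNP at weak 5' splice sites, had 46.4, 46.4 and 43.3 CPM in control and 56.2, 47.6 and 56.0 CPM in MTR4 KD. The groups were apart, though MTR4 KD 2 was close to the controls, and the log2 fold change was 0.23 (95% confidence interval 0.04 to 0.42, adjusted p = 0.190). ELAVL1, the HuR protein that stabilizes AU-rich mRNA, had the lowest log2 fold change, with 110 ± 1.61 CPM in control and 103 ± 1.87 CPM in MTR4 KD (−0.10, adjusted p = 0.359). TIAL1 (0.06), KHSRP (0.01) and KHDRBS1 (−0.08) were within 0.1 of 0, and 0 of the 5 passed.

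None of the 4 genes for 3' splice site and branch point recognition passed. SF3B1, the U2 snRNP protein that clasps the branch point, had 369, 412 and 354 CPM against 384, 392 and 348 CPM, and a log2 fold change of −0.01 (95% confidence interval −0.20 to 0.17, adjusted p = 0.943). SF1, the first branch point binder, had 217, 172 and 212 CPM against 183, 186 and 227 CPM, a log2 fold change of −0.01 (−0.29 to 0.27, adjusted p = 0.973), and U2AF2, which binds the polypyrimidine tract, had 279, 248 and 294 CPM against 254, 259 and 293 CPM, a log2 fold change of −0.03 (−0.23 to 0.18, adjusted p = 0.905). In SF1 and U2AF2 the 3 libraries with more non-unique reads were the highest, whatever their group. U2AF1, which reads the AG of the 3' splice site, had only 163 to 375 reads, or 2.64, 5.18 and 4.03 CPM against 4.24, 5.39 and 2.79 CPM. Its 50-base windows were shared to 100% with 2 other annotated genes, one of which (ENSG00000275895) had 59 to 155 reads, so its count is uncertain, and its interval of −0.65 to 0.78 allows changes of either sign.

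The levels of many members went with the alignment class. With both terms in the same edgeR fit, 29 of 57 members (50.9%) differed between the libraries with more and those with fewer non-unique reads, against 31.5% of the tested genes. Of these, 25 were lower in the libraries with more non-unique reads (tested genes 15.3%) and 4 were higher (tested genes 16.2%). The strongest were U2AF1 (−0.71), RBM25 (−0.49), HNRNPM (−0.35) and HNRNPUL2 (−0.33) among the lower, and SF1 (0.31), HNRNPLL (0.21), U2AF2 (0.20) and PTBP1 (0.12) among the higher. The members' median class difference was −0.07, against −0.01 over the tested genes. This was not particular to the members. Of 139 further splicing genes, described below, 79 differed between the classes, 57 of them lower and 22 higher with more non-unique reads, with a median of −0.10.

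With that term in the fit, 15 members passed for MTR4 KD against control (26.3%), against 20.2% of the tested genes. Higher in MTR4 KD were 9 (tested genes 9.43%), namely ESRP2 (0.53), SRSF6 (0.28), RBM39 (0.28), TRA2A (0.27), TIA1 (0.24), SRSF11 (0.17), HNRNPH2 (0.16), SRSF5 (0.16) and SRSF3 (0.15). Lower were 6 (tested genes 10.8%), namely RBFOX2 (−0.37), SRSF12 (−0.19), HNRNPA3 (−0.18), HNRNPA1 (−0.15), HNRNPAB (−0.15) and HNRNPC (−0.14). The adjusted p of the 14 that had not passed before ran from 7.12e-05 for RBFOX2 to 0.0456 for SRSF5. Each of the 15 had the same sign among the libraries with more non-unique reads, where a single MTR4 KD library stands against 2 controls, and among those with fewer, where 2 stand against a single control. The fit that picked the 15 used these same differences, so the shared sign is not separate evidence. By role, 5 of 14 SR and TRA2 genes passed as higher and 1 as lower, 1 of 20 hnRNP genes as higher and 4 as lower, and 0 of the PTB and 3' splice site genes passed. HNRNPA3 shares 73.8% of its 50-base windows with other genes' transcripts on either strand, most of them with NFE2L2, and HNRNPC 15.6%. More than 10% of the windows were shared for 16 members, HNRNPUL2 (45.3%), SRSF9 (40.3%), HNRNPL (37.4%) and SRSF1 (29.3%) among them. These counts are uncertain to an extent not tested, since the counting annotation and strand setting can differ from those of the windows.

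**Figure D3:**
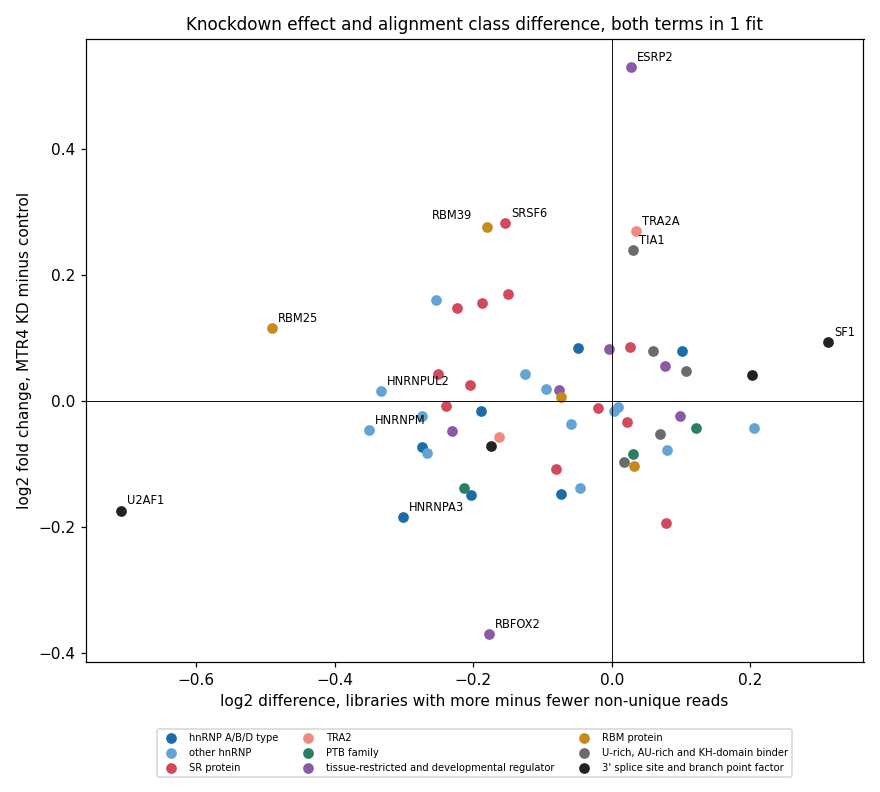
Each point is 1 of the 57 tested members, with its log2 difference between libraries with more and fewer non-unique reads on the horizontal axis and its log2 fold change of MTR4 KD minus control on the vertical axis, both from the fit that holds the 2 terms. Most points lie left of 0, down to −0.71 for U2AF1, and ESRP2 at 0.53 and RBFOX2 at −0.37 are the vertical extremes.

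Levels spanned more than the differences between groups did. Per kilobase of the canonical transcript, the control level was 291 ± 39.5 CPM for HNRNPA2B1, 246 ± 28.5 for HNRNPA1, 218 ± 5.75 for HNRNPK and 211 ± 31.8 for HNRNPH1. These neighbours overlapped within their SD. PTBP1 stood at 147 ± 8.30 CPM per kilobase, beside HNRNPC at 149 ± 2.91, while PTBP3 had 31.7 ± 1.60 and PTBP2 14.5 ± 2.03, so the 3 PTB genes were apart by more than their spread. TRA2B (36.8 ± 3.33) was above TRA2A (28.3 ± 0.205). ESRP2 moved from 22.1 ± 0.771 in control to a mean of 31.8 in MTR4 KD. At the low end were SRSF12 (6.56 ± 0.200), U2AF1 (4.18 ± 1.34), MBNL3 (0.0809 ± 0.00586) and ESRP1 (0.0398 ± 0.0313).

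**Figure D4:**
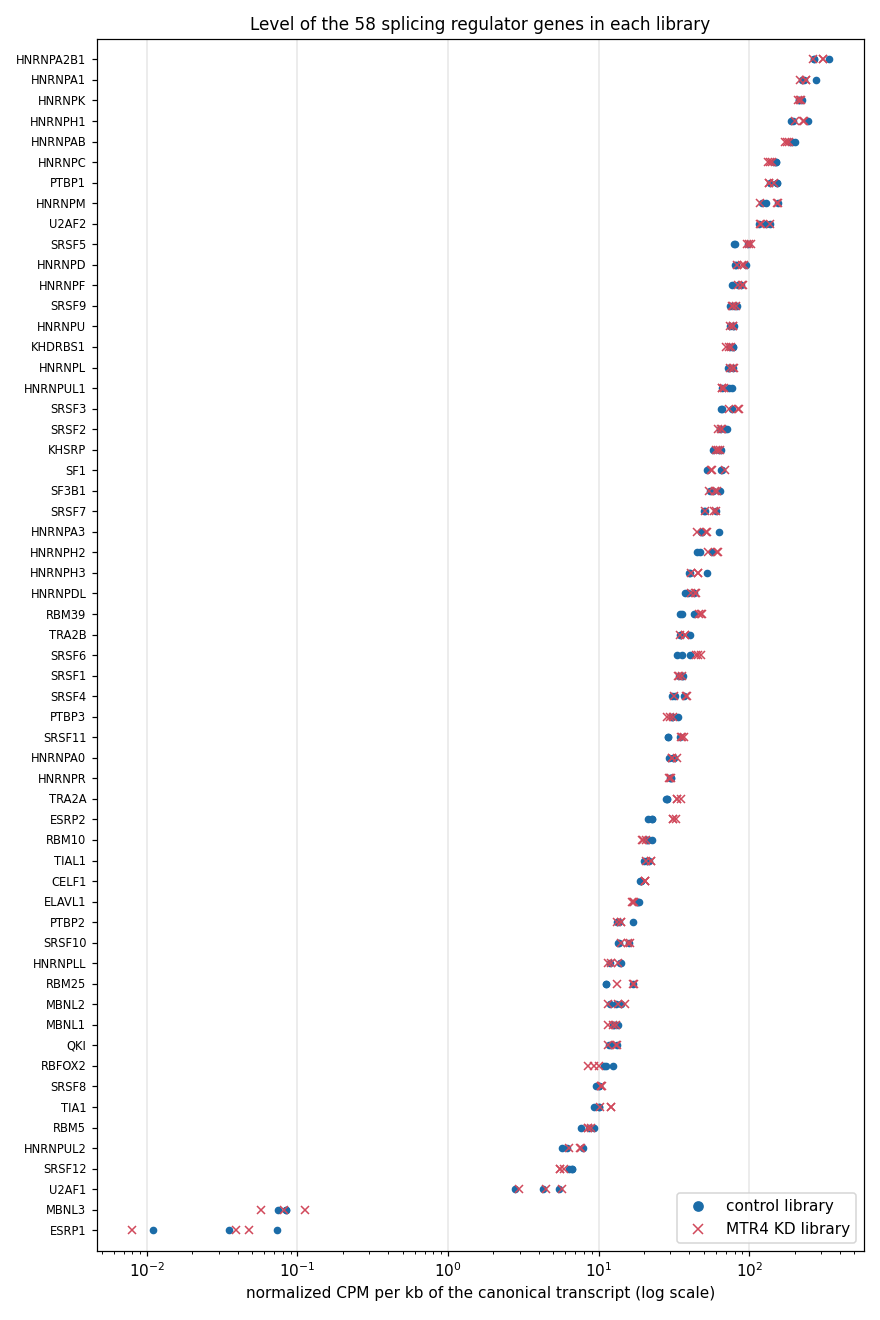
Level of the 58 genes in each library as normalized CPM per kilobase of the canonical transcript, on a log axis, with blue points for control and red crosses for MTR4 KD. The hnRNP genes fill the top, led by HNRNPA2B1 at 291 in control, and the red crosses lie among the blue points for most genes and to the right of them for ESRP2.

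In the rest of the splicing machinery few genes passed. Of 145 further splicing genes in 7 lists, 139 identifiers were tested. With condition alone, 1 passed as higher and 0 as lower, against 1.48% and 2.12% of the tested genes. The median log2 fold change was 0.03, in a range of −2.59 to 0.52. At an unadjusted p under 0.05 there were 17 of the 139, against 18.8% of the tested genes. The gene that passed was RBM47, an RNA-binding protein of epithelia, with 139 ± 6.22 CPM in control and 170 ± 3.99 CPM in MTR4 KD (log2 fold change 0.29, adjusted p = 0.0482), and it passed in 0 of the 6 fits with a library left out. In the core lists 0 passed, with medians of 0.03 over 15 genes of Sm proteins and U1 snRNP, −0.02 over 18 of U2 snRNP, 0.00 over 23 of the tri-snRNP and 0.02 over 25 of the PRP19 complex and the catalytic steps. The 14 genes of the exon junction complex and SR-related coactivators had a median of 0.13 and 0 passed. With the alignment class as a term, 14 of the 139 passed as higher and 14 as lower (20.1%, against 20.2% of the tested genes). In the coactivator list these were THRAP3 (0.26), BCLAF1 (0.24), SRRM2 (0.21), SON (0.20) and SRRM1 (0.14) as higher and RNPS1 (−0.16) as lower, named after their values were seen. Among the 9 kinases and importers of SR proteins they were PRPF4B (0.34) and SRPK1 (−0.22), likewise named after their values were seen. In the same fit, 2 genes of Sm proteins and U1 snRNP passed as higher and 4 as lower. For U2 snRNP these counts were 0 and 2, for the tri-snRNP 1 and 1. They were 1 and 2 for the PRP19 complex and catalytic steps, and 4 and 3 for other alternative splicing regulators.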

How the data were processed

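RNA-seq counts of 3 control and 3 MTR4 KD libraries of PLC/PRF/5 cells were used. The authors deposited raw counts per Ensembl gene without normalization, with 5 classes of reads on no gene (37.7% to 49.3% of reads), which were left out. The submitters' processing notes list HISAT2 2.1.0, GRCh38, HTSeq and DESeq2, and the study names Ensembl release 84. The counting mode and strand setting were not given in the sources used here. Reads whose alignment is not unique were not counted, which lowers genes with near-identical copies.

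Groups came from the sample labels. The labels do not say that replicates were separate cultures, so p-values measure only the spread between these samples. The members and lists were chosen with earlier results of these data known. Genes were kept by edgeR's filterByExpr (minimum count 10), scaled by TMM and tested by edgeR's quasi-likelihood method on condition alone, with Benjamini-Hochberg adjustment over 18075 genes and a threshold of 0.05. Intervals are 95%. Libraries with over 30% non-unique reads formed 1 alignment class and the others the second. Alternatives were DESeq2's size factors, total counts, no filter, at least 1 CPM in 3 libraries, DESeq2's Wald test, limma-voom, a replicate block, the alignment class as a term and leaving out each library. The script was tested on simulated data. Named were members past the threshold, PTBP1 to PTBP3, HNRNPA1, HNRNPA2B1 and the 3' splice site genes whatever their p, the highest and lowest log2 fold change of each of 9 role groups, members past it with the class as a term, and untested members. Others were named after their values were seen. Tools were R 4.3.3, edgeR 4.0.16, limma 3.58.1, DESeq2 1.42.0, Python 3.11.15, pandas 2.3.3 and matplotlib 3.10.9. Symbols, transcripts and lengths came from GENCODE v44lift37 on GRCh37 and a table that held 56959 of the 60675 identifiers. Positions are from RefSeq on GRCh38. No coordinates were converted. Splicing events were not analysed here.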

Additional observations from a re-analysis of the deposited data

How the results depend on the processing

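The count of members past the threshold (1) was 2 with total counts, 2 with at least 1 CPM in 3 libraries, 5 in DESeq2's Wald test, 15 with the alignment class as a term and 0 to 5 with each library left out, with 0 without MTR4 KD replicate 2 (6 members there at an unadjusted p under 0.05, edgeR) and 5 (ESRP2, SRSF6, RBM39, SRSF11 and SRSF5) without control replicate 2. The members' median (0.03) was −0.011 with the class term and −0.0017 to 0.048 with each library left out. Over the tested genes the count of 650 was 1136 in the Wald test, 3649 with the class term and 137 to 803 with each library left out. For the further splicing genes (1) it was 0 with total counts, 0 without a filter, 2 with at least 1 CPM, 5 in the Wald test, 28 with the class term and 0 to 2 with each library left out. The signs of HNRNPA2B1 (−0.072), SF1 (0.094), U2AF1 (−0.17) and U2AF2 (0.041) turned with the class term, and that of TRA2B (0.0038) with total counts. With each library left out, log2 fold changes of either sign were seen for HNRNPA1 (−0.14 to 0.0073), HNRNPA2B1 (−0.044 to 0.13), HNRNPA3 (−0.16 to 0.041), PTBP2 (−0.14 to 0.042), SF1 (−0.12 to 0.049), SF3B1 (−0.061 to 0.047), TRA2B (−0.049 to 0.066), U2AF1 (−0.17 to 0.31) and U2AF2 (−0.098 to 0.028). None of these genes had passed with condition alone. Of 27 members under 8 alternatives, 190 values kept direction and side of the threshold, 21 newly passed, 0 ceased to pass and 5 turned sign. The cause of these changes was not tested.

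The replicate block gave 2 members, ESRP2 and RBFOX2 (adjusted p = 0.00769 and 0.0374 in edgeR), 5 of the further splicing genes and 857 of the 18075 tested genes. Same-numbered libraries correlated across genes by −0.22, 0.30 and 0.33 in their deviations from the group means, and control 1 correlated best with MTR4 KD 3 (0.31), so the numbers were not taken to pair the libraries. The biological coefficient of variation was 0.175 in the fit with condition only, 0.125 with the block and 0.0573 with the class term. Depth limits ESRP1, MBNL3 and U2AF1. Sequence shared on either strand may limit the 16 members with over 10% of their windows shared, with U2AF1 (100%) and HNRNPA3 (73.8%) the most.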
